A study of Homo sapiens with 9 samples.

Results

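The expression of 10 cadherin genes was followed in a colon cancer cell line and its derivatives: the classical or related genes CDH1, CDH2, CDH3, CDH11, CDH12 and CDH17 (6 genes) and the desmosomal genes DSC2, DSC3, DSG2 and DSG3 (4 genes). They were chosen by name and matched by Ensembl identifier among 63677 identifiers, and all 10 were found. RNA of the human colon adenocarcinoma cell line SW480 and of its BASP1-expressing derivatives SW480-B and SW480-gRNA-B-all was sequenced as 3 libraries per line, 9 in all. SW480-B is a geneticin-selected single-cell clone carrying the coding region of BASP1 on a CMV-driven plasmid. SW480-gRNA-B-all expresses a dCas9-VP64 transactivator and MS2-P65-HSF1 from lentiviral vectors, went through single-cell cloning before the guides were added, and received pooled sgRNAs to the BASP1 promoter. Unmodified SW480 cells were the comparator, so BASP1 expression cannot be told apart from cloning, selection and vector integration. The sources do not say whether the 3 libraries of a line came from separate cultures, and p-values measure only the spread between these libraries.

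Cadherins are transmembrane proteins that hold neighbouring cells together through calcium-dependent binding of their extracellular repeats. The classical cadherins sit in adherens junctions, where their cytoplasmic tails bind p120- and β-catenin and, through α-catenin, the actin cytoskeleton. The desmogleins and desmocollins are the cadherins of desmosomes and are coupled to intermediate filaments by plakoglobin, plakophilins and desmoplakin. In colon epithelium E-cadherin (CDH1), LI-cadherin (CDH17), DSG2 and DSC2 are the usual members, and P-cadherin (CDH3) is known from colorectal tumors.

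Each library held 25238831 to 29355669 counts on genes, and a count of 0 allows for at most 3 counts, or 0.0983 to 0.115 CPM (counts scaled to library size), which covers counting error only. BASP1 was at 0.688 to 11.3 CPM in the SW480 libraries, 255 to 270 in SW480-B and 166 to 308 in SW480-gRNA-B-all. It thus set the SW480 libraries apart from the others, but its level does not tell SW480-B from SW480-gRNA-B-all. Replicates 2 and 3 of SW480-gRNA-B-all were closer to each other than any other pair of one line. The chi-square per degree of freedom of their counts was 3.13, against 80.9 to 296 for the other pairs, and 0% of genes differed by more than 2-fold between them. They differed by more than sampling noise and were kept as separate libraries, and calls are also given with both summed into 1. The epithelial keratins KRT8, KRT18 and KRT19 were at 518 CPM or more in every library. Of the other markers of colon epithelium, KRT20, CDX1 and LGALS4 stayed under 1 CPM. VIL1 was at 6.45 to 327 CPM and CDX2 at 2.41 to 67.8 CPM over the 9 libraries.

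SW480-gRNA-B-all cells had less transcript of 6 of the 10 cadherin genes than the parental line, namely CDH11, CDH12, CDH17, DSC2, DSC3 and DSG2. In SW480-B the lower genes were CDH11, CDH12 and CDH17. CDH1 passed the thresholds in neither line, and CDH3 did not reach a 2-fold change. CDH2, the N-cadherin gene typical of mesenchymal and neural cells, had 0 counts in all 9 libraries.

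Genes were called at a Benjamini-Hochberg adjusted p under 0.05 and a change above 2-fold, in edgeR's quasi-likelihood test. For SW480-gRNA-B-all against SW480, 8 of the 10 cadherin genes passed the filter on low counts, 6 of them were called lower and 0 higher. The shares among all 16100 genes tested were 4.66% lower and 1.89% higher. All 3 SW480-gRNA-B-all libraries lay below all 3 SW480 libraries for 7 of the 8 genes, compared with 18.6% of all genes. For SW480-B against SW480, 3 of 8 tested cadherin genes were called lower and 0 higher, against 1.25% and 0.0931% of 16106 genes. All 3 SW480-B libraries lay below all 3 SW480 libraries for 4 of the 8 genes, against 10.8% of all genes. For SW480-gRNA-B-all against SW480-B, 2 of 5 tested cadherin genes were called lower and 0 higher, against 4.37% and 2.31% of 15846 genes. For 4 of the 5, all 3 SW480-gRNA-B-all libraries lay below all 3 of SW480-B, against 15.5% of all genes. The first 2 comparisons share the SW480 libraries. CDH11, CDH12, CDH17, DSC2 and DSC3 passed the filter against SW480-gRNA-B-all only through their SW480 counts, so they could only come out lower. The same holds for CDH11, CDH12 and CDH17 in SW480-B, and for DSC2 and DSC3 between the BASP1-expressing lines. The 10 genes were also chosen with earlier results of these data known. The shares over all genes are therefore a background and no test of the cadherin genes as a set.

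The number of calls against SW480 depended on which libraries entered. With SW480-gRNA-B-all replicates 2 and 3 summed, 0 of the 6 cadherin genes were called lower, with adjusted p from 0.0571 (DSC2) to 0.107 (CDH12 and DSG2) in edgeR, and the calls over all genes fell from 1055 to 97. The count was 0 without SW480 replicate 2 and without SW480-gRNA-B-all replicate 2 or 3, 1 without SW480-gRNA-B-all replicate 1, 6 without SW480 replicate 1 and 7 without SW480 replicate 3. In SW480-B it was 0 without any 1 of the 3 SW480-B libraries, and 2 to 4 without an SW480 library. In fits that kept all libraries apart, the counts were 4 to 7 in SW480-gRNA-B-all and 2 to 3 in SW480-B. DSC2 and DSC3 were called against SW480-B in every fit of that comparison.

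E-cadherin, the classical cadherin of epithelial adherens junctions, is encoded on chromosome 16 (68771195 to 68869440, plus strand, GRCh37; ENSG00000039068). CDH1 was at 20.4, 37.7 and 72.6 CPM in the SW480 libraries, 48.9, 45.9 and 43.7 in SW480-B, and 21.0, 28.9 and 25.5 in SW480-gRNA-B-all. The SW480 libraries spanned the values of both other lines, and the SW480-B libraries all lay above those of SW480-gRNA-B-all. The log2 fold change was -0.83 ± 0.42 (SE) in SW480-gRNA-B-all (edgeR adjusted p = 0.239, n = 3 per line) and 0.10 ± 0.40 in SW480-B (adjusted p = 0.929). The 95% interval ran from -1.82 to 0.17 in the former and from -0.82 to 1.02 in the latter, and changes within these bounds were not detectable against the spread of the SW480 libraries. The former value was -0.23 without SW480 replicate 3 and -1.14 without SW480 replicate 1, and the latter was 0.68 and -0.23. Between the BASP1-expressing lines CDH1 was lower in SW480-gRNA-B-all by a log2 fold change of -0.89 ± 0.18 (adjusted p = 0.0196), which is under 2-fold. With SW480-gRNA-B-all replicates 2 and 3 summed, that adjusted p was 0.0843.

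P-cadherin (CDH3), which lies on the same strand with its end 9.82 kb before the start of CDH1 (chromosome 16, 68670092 to 68761371; ENSG00000062038), was at 53.2, 65.1 and 67.4 CPM in SW480. It was at 43.0, 40.3 and 24.7 CPM in SW480-B and at 38.8, 37.3 and 34.6 in SW480-gRNA-B-all. Every SW480 library was above every library of the other lines, and these overlapped each other. The log2 fold change was -0.79 ± 0.15 in SW480-gRNA-B-all (edgeR adjusted p = 0.0304) and -0.77 ± 0.26 in SW480-B (adjusted p = 0.213), both under 2-fold. Against SW480-B, CDH3 in SW480-gRNA-B-all differed by 0.02 ± 0.23 (95% interval -0.50 to 0.55). The antisense gene CDH3-AS1 overlaps CDH3 and had at most 4 counts in a library. Of the 53 other protein-coding genes within 1 Mb of CDH3 and CDH1, 42 were tested between SW480-gRNA-B-all and SW480, 1 of them (HAS3) was called lower, and the median was 0.07. Over all genes, 4.66% were called lower in this comparison.

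CDH11, CDH12 and CDH17 were expressed in SW480 and fell in both BASP1-expressing lines. CDH12 and CDH17 had at most 1 count in a library there, and CDH11 had 4 to 20 counts in SW480-B and 0 to 9 in SW480-gRNA-B-all. They lie on 3 chromosomes and are known from different tissues: CDH11 from mesenchymal and bone-forming cells, CDH12 from the nervous system and CDH17 from intestinal epithelium.

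CDH11 (chromosome 16, 64977656 to 65160015, minus strand; ENSG00000140937) was at 12.1, 45.6 and 14.1 CPM in SW480. In SW480-B it was at 0.461, 0.717 and 0.144 CPM, and in SW480-gRNA-B-all at 0.304, 0.0339 and 0 CPM. The ranges of SW480 and of both other lines were far apart, and the SW480-gRNA-B-all libraries lay partly within the range of SW480-B. The log2 fold change was -7.70 ± 1.07 in SW480-gRNA-B-all (edgeR adjusted p = 0.0143) and -5.74 ± 0.76 in SW480-B (adjusted p = 0.0158). Between the BASP1-expressing lines CDH11 was under the filter on low counts. Of 7 fibroblast markers, COL3A1 had 0 counts in all libraries, and their summed level was 5.76 to 10.1 CPM in SW480, 2.95 to 9.38 in SW480-B and 9.23 to 11.1 in SW480-gRNA-B-all. Of these, LUM was at 6.16, 2.12 and 0.978 CPM in SW480 and had at most 1 count in a library of the other lines. COL1A1 went the other way in SW480-gRNA-B-all, at 7.88 to 10.9 CPM against 3.34 to 4.35 in SW480. In SW480-B it was at 2.30 to 8.34 CPM. The part of these markers in the CDH11 difference was not tested.

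CDH12 (chromosome 5, 21750782 to 22853453, minus strand; ENSG00000154162) had 1654, 259 and 78 counts in the SW480 libraries, or 54.2, 8.99 and 2.82 CPM. It had 0, 0 and 1 counts in SW480-B and 0 in each SW480-gRNA-B-all library. The SW480 libraries differed widely from each other, but the lowest of them was far above the other lines. CDH12 was at least 676-fold lower in SW480-gRNA-B-all, against a floor of 3 counts over the line, and at least 176-fold without SW480 replicate 1. In SW480-B the ratio of SW480 to SW480-B was 1872, with a 95% counting interval of 336 to 73973, and 488 without SW480 replicate 1. For SW480-gRNA-B-all the adjusted p in edgeR was 0.0446 and for SW480-B 0.0279, and with no filter on low counts it was 0.216 and 0.140.

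Other cadherin genes on the short arm of chromosome 5 were low throughout. The lower coordinate of CDH12, its end on the minus strand, lies 4.47 Mb beyond the end of BASP1 on the same arm. CDH9 was at 4.91, 1.63 and 0.109 CPM in SW480 and at 0 counts in the 6 other libraries, at least 67.9-fold lower in SW480-gRNA-B-all and at least 62.7-fold lower in SW480-B. Without SW480 replicate 1 these bounds were 26.2 and 24.1. CDH18 had 44 counts over the SW480 libraries and 0 in both other lines, and CDH10 had 4 and 0. The order of CDH12 and CDH9 among the SW480 libraries was the same, and over all of chromosome 5 the median log2 fold change was -0.21 for SW480-gRNA-B-all and -0.08 for SW480-B.

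CDH17 (chromosome 8, 95139390 to 95229531, minus strand; ENSG00000079112), which mediates adhesion of intestinal epithelial cells without binding catenins, was at 17.4, 6.21 and 1.63 CPM in SW480 and had 0 counts in all 6 libraries of the BASP1-expressing lines. Among the SW480 libraries the highest was over 10-fold above the lowest. CDH17 was at least 256-fold lower in SW480-gRNA-B-all (edgeR adjusted p = 0.0332) and at least 237-fold lower in SW480-B (adjusted p = 0.0415). Without SW480 replicate 1 the bounds were 117 and 108. The call was lost in SW480-gRNA-B-all with no filter on low counts (adjusted p = 0.0608) and in SW480-B with a filter of 1 CPM in 3 libraries (adjusted p = 0.0537). Of the 15 protein-coding neighbours within 1 Mb, 14 were tested and 0 were called in either comparison. Among 10 markers of colon epithelium, VIL1 was at 98.3 to 327 CPM in SW480, 29.5 to 36.1 in SW480-B and 6.45 to 21.4 in SW480-gRNA-B-all, whereas CDX2 was at 28.9 to 41.7, 58.3 to 67.8 and 2.41 to 5.51 CPM. The summed level of the 10 markers was 7889 to 10853 CPM in SW480, 6904 to 11374 in SW480-B and 6300.5 to 7896 in SW480-gRNA-B-all. Their part in the CDH17 difference was not tested. In a bulk library, fewer cells with a transcript and less transcript per cell cannot be told apart.

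The desmosomal cadherin genes DSC3, DSC2, DSG3 and DSG2 form a cluster of 560 kb on chromosome 18 (28569331 to 29128971). DSG2 and DSC2 are the pair of simple epithelia, and DSG3 and DSC3 are best known from stratified epithelia such as epidermis. All 4 had counts in SW480, and of these DSG2 was still at 61.6 CPM or more in SW480-gRNA-B-all, below its level in SW480.

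The 250 bases before the start of each of these genes are given, with that of CDH12, since they adjoin genes that fell to a few counts or none in SW480-gRNA-B-all and the 1 desmosomal gene that stayed well expressed at a lower level. The sequences are from RefSeq on GRCh38.p14, in which 6 of the 10 cadherin genes had an entry, and are written in the direction of transcription. Matches to the E-box CACCTG or its reverse complement CAGGTG, the motif bound by SNAI and ZEB proteins, are in capitals.
DSC3 (chr18:31042743-31042992, minus strand): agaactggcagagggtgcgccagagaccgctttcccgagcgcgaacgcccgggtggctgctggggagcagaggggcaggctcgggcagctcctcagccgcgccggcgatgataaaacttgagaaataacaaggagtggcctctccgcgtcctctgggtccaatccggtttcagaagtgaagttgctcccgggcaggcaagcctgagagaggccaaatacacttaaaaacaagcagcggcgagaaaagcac
DSC2 (chr18:31102422-31102671, minus strand): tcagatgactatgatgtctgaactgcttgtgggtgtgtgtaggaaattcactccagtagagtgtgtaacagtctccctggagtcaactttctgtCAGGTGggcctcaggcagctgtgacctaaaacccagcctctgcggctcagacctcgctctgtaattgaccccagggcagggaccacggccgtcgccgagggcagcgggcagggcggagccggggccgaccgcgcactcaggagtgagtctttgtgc
DSG3 (chr18:31447491-31447740, plus strand): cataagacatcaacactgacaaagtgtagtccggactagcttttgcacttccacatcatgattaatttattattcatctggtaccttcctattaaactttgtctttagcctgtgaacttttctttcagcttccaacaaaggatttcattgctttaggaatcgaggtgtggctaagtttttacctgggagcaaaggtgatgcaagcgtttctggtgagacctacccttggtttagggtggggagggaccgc
DSG2 (chr18:31497927-31498176, plus strand): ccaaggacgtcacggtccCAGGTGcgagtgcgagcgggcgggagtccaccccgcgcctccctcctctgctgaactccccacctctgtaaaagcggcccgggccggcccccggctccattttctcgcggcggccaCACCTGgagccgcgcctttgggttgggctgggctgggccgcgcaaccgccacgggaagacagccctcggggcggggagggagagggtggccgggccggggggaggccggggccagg
CDH12 (chr5:22853345-22853594, minus strand): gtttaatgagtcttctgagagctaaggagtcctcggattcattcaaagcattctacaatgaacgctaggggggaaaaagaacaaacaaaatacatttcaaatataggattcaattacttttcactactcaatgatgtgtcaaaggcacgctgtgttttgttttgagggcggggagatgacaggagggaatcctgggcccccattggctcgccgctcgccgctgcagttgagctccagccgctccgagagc

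An E-box was found once in DSC2, 156 bases before the start, and in DSG2 at 116 and 232 bases before it. DSC3, DSG3 and CDH12 had no match in this window. Of 35116 promoters in the same table, 17.5% held this E-box in their 250 bases. The TCF/LEF motif ATCAAAG or its reverse complement CTTTGAT was in 0 of the sequences shown and in 2.26% of all promoters. The GC content was 59.6% in DSC2, 60.4% in DSC3, 75.2% in DSG2, 42.8% in DSG3 and 48% in CDH12.

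DSG2 (29078140 to 29128971, plus strand, ENSG00000046604) was highest among the chosen cadherin genes per exon length in all libraries but SW480 replicate 3. There CDH1 equalled it. DSG2 was at 244, 253 and 113 CPM in SW480, 103, 164 and 90.9 in SW480-B, and 61.9, 61.6 and 62.3 in SW480-gRNA-B-all. The SW480-B range overlapped that of SW480, and the SW480-gRNA-B-all libraries lay below all others. The log2 fold change was -1.76 ± 0.32 in SW480-gRNA-B-all (edgeR adjusted p = 0.0256), a 3.39-fold lower level, and -0.78 ± 0.36 in SW480-B (adjusted p = 0.344). With replicates 2 and 3 summed the former adjusted p was 0.107. Between the BASP1-expressing lines DSG2 differed by -0.95 ± 0.23 (adjusted p = 0.0370), just under 2-fold. It was -1.12 (adjusted p = 0.0194) without SW480-B replicate 3, which made it a call. DSG2-AS1 overlaps the end of DSG2 on the other strand and had at most 2 counts.

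DSC2 (28638806 to 28682485, minus strand; ENSG00000134755) had 612, 575 and 122 counts in SW480, or 4.42 to 20.1 CPM, and was at 8.42, 16.6 and 6.76 CPM in SW480-B. It had 6, 0 and 3 counts in the SW480-gRNA-B-all libraries, or 0.203, 0 and 0.102 CPM. The SW480 and SW480-B libraries overlapped, and those of SW480-gRNA-B-all were below all of them. The log2 fold change of SW480-gRNA-B-all was -7.18 ± 1.00 against SW480 (edgeR adjusted p = 0.0144) and -6.65 ± 0.73 against SW480-B (adjusted p = 0.00239). In SW480-B it was -0.49 ± 0.58 against SW480 (adjusted p = 0.722), with a 95% interval of -1.82 to 0.84.

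DSC3 (28569331 to 28622781, minus strand; ENSG00000134762) followed DSC2 at a lower level. It was at 3.24, 4.93 and 1.12 CPM in SW480 and 1.15, 2.58 and 1.22 in SW480-B, with 0 counts in each SW480-gRNA-B-all library. The SW480-gRNA-B-all line was at least 92.3-fold below SW480 (edgeR adjusted p = 0.0218) and at least 49.1-fold below SW480-B (adjusted p = 0.00575). SW480-B differed from SW480 by -0.91 ± 0.61 (adjusted p = 0.508), and their libraries overlapped. The contrast of SW480-gRNA-B-all with SW480-B was called for DSC2 and DSC3 with every library left out in turn, at adjusted p up to 0.0190 and 0.0282.

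DSG3 (29027704 to 29058665, plus strand; ENSG00000134757) had 81, 84 and 1 counts in SW480, 0, 2 and 0 in SW480-B and 0 in each SW480-gRNA-B-all library. SW480 replicate 3 was thus at the level of the other lines, and DSG3 did not pass the filter in any comparison. It was at least 56.4-fold lower in SW480-gRNA-B-all by summed counts, and the ratio of SW480 to SW480-B was 78.0 with a 95% counting interval of 21.3 to 650. Without SW480 replicate 3 it passed the filter and was called lower in both lines.

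Within 1 Mb of the cluster 5 neighbours were tested between SW480-gRNA-B-all and SW480. All 5 had a log2 fold change below 0, with a median of -0.79, and 1 of them was called lower. This was RNF138, at 68.4, 53.8 and 33.6 CPM in SW480 and 12.6, 17.8 and 16.7 in SW480-gRNA-B-all (log2 fold change -1.78 ± 0.30, edgeR adjusted p = 0.0231). GAREM1 differed by -2.11 ± 0.65 (adjusted p = 0.0909), RNF125 by -0.79 (0.258), TRAPPC8 by -0.60 (0.155) and B4GALT6 by -0.39 (0.314). Against SW480-B, 2 of 6 were called lower, DSG4 (-4.30 ± 0.73) and RNF125 (-2.01 ± 0.37). In that comparison 4.37% of all genes and 6.91% of 217 chromosome 18 genes were called lower. DSG4 passed the filter there only through its SW480-B counts, so it could only come out lower. DSC1, DSG1 and TTR, within or beside the cluster, were under the filter. Of 223 chromosome 18 genes tested, 11.7% were called lower in the SW480-gRNA-B-all line against its parent, with a median of -0.51 compared with -0.05 for all genes. In SW480-B the median of 227 genes was -0.33 and 2.20% were called lower. The part of this chromosome-wide difference in the desmosomal genes was not tested.

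To compare levels between the 10 cadherin genes, CPM was divided by the exon length of each gene. In SW480 the order was DSG2 at 21.4 ± 8.28 CPM per kb (SD, n = 3), CDH3 at 9.69 ± 1.20 and CDH1 at 7.17 ± 4.38, followed by CDH12, CDH17, CDH11, DSC2, DSC3 and DSG3 at 3.89 to 0.335. Neighbours in this order overlapped in their libraries, apart from DSG2 and CDH3. The order of CDH12, CDH17, CDH11 and DSC2 was different per coding length, where CDH11 came before CDH12 and DSC2 before CDH17. In SW480-B the order was DSG2 at 12.5 ± 4.11, CDH1 at 7.60 ± 0.422 and CDH3 at 5.63 ± 1.55, without overlap. In SW480-gRNA-B-all it was DSG2 at 6.52 ± 0.0385, CDH3 at 5.77 ± 0.329 and CDH1 at 4.13 ± 0.653, with no overlap between these neighbours. CDH1 thus stood above CDH3 in all 3 SW480-B libraries and below it in all 3 of SW480-gRNA-B-all.

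The sum of the 10 genes was 48.1 ± 9.78 CPM per kb in SW480, 26.9 ± 5.74 in SW480-B and 16.4 ± 0.547 in SW480-gRNA-B-all. CDH11, CDH12 and CDH17 together made up 5.37% to 27.3% of this sum in the SW480 libraries and at most 0.164% in the other lines. The desmosomal genes held 47.0% ± 11.9 (SD, n = 3) in SW480, 49.9% ± 6.98 in SW480-B and 39.8% ± 1.53 in SW480-gRNA-B-all, nearly all of it DSG2. The share of CDH1 was 6.12% to 32.4% in SW480, 23.0% to 33.7% in SW480-B and 21.5% to 27.8% in SW480-gRNA-B-all. The shares of CDH1 and of the desmosomal genes in the SW480 libraries reached into those of both other lines.

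E-cadherin was then set against each other cadherin gene within the same library, as the log2 ratio of counts with 0.5 added to each. This needs no scaling between libraries where both genes are well above 0 counts. At or near 0 counts the ratio depends on depth and on the added 0.5. For CDH12, CDH17 and DSC3 it had the same mean of 10.5 in SW480-gRNA-B-all, so the sizes below are not measured changes for such genes. In SW480-gRNA-B-all the ratio of CDH1 to CDH11, CDH12, CDH17, DSC2 and DSC3 was higher than in SW480 by 7.63, 8.75, 7.76, 6.70 and 6.67. The libraries of the 2 lines did not overlap for any of these 5 ratios. The exact permutation test, two-sided, gave p = 0.10 for each, the smallest that 3 against 3 libraries allow, and 0.14 after adjustment over 7 ratios. For CDH3 and DSG2 the differences were 0.12 and 1.01 (exact permutation p = 0.90 and 0.40), with overlap between the lines.

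In SW480-B the ratio of CDH1 to CDH11, CDH12 and CDH17 was higher than in SW480 by 5.96, 8.99 and 8.53, and that to CDH3 by 1.09, without overlap (exact permutation p = 0.10, adjusted 0.175 over 7 ratios). For DSC2, DSC3 and DSG2 the differences were 0.57, 1.03 and 1.00 with overlapping libraries (exact permutation p = 0.70, 0.40 and 0.40). The ratio of CDH1 to CDH11, CDH12 and CDH17 was set apart from SW480 in both lines, and that to DSC2 and DSC3 in SW480-gRNA-B-all. These genes had few or no counts there and were called lower from the same libraries, so the ratios restate those calls and are no separate test. The same applies to the ratios to DSC2 and DSC3 given next. Between the BASP1-expressing lines the ratio of CDH1 to DSC2 and DSC3 was higher in SW480-gRNA-B-all by 6.12 and 5.63, that to CDH3 was lower by 0.96, and that to DSG2 differed by 0.01. The first 3 did not overlap (exact permutation p = 0.10, adjusted 0.133 over 4 ratios), whereas for DSG2 p was 1.0. CDH1 and DSG2 thus kept nearly the same mean ratio in both lines, at -1.31 ± 0.24 and -1.32 ± 0.44 on the log2 scale (SD, n = 3).

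The SW480 libraries differed in the ratio of CDH1 to every other gene. SW480 replicate 3 had the highest CDH1 level and the lowest CDH12, CDH17, DSC2, DSC3, DSG2 and DSG3, and SW480 replicate 1 the lowest CDH1 and the highest CDH12 and CDH17. The CDH1 to DSG2 ratio of counts was 0.0837, 0.149 and 0.644 in SW480, against 0.281 to 0.481 in SW480-B and 0.339 to 0.469 in SW480-gRNA-B-all. Over the 9 libraries, with log2 CPM, Pearson's r of CDH1 with the other cadherin genes that had counts was between -0.28 (DSG3) and 0.39 (DSC2). Among 3613 genes with at least 1 CPM in 3 libraries and line means over 2-fold apart, the 5 most like CDH1 were SHH, CRYGN, FOS, SDK1 and NDP, with r of 0.96, 0.94, 0.93, 0.92 and 0.92. SHH was at 1.61, 5.73 and 37.2 CPM in SW480, at 17.0, 7.20 and 15.7 in SW480-B and at 1.35, 4.20 and 4.07 in SW480-gRNA-B-all. The libraries of a line are not independent points, and these values are descriptive.

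Cadherins work together with cytoplasmic and membrane partners. Of 20 catenins and adherens junction partners, 18 were tested against SW480, 4 were called lower in SW480-gRNA-B-all and 0 higher, and the median was -0.03 compared with -0.05 for all genes. Over all genes tested, 4.66% were called lower and 1.89% higher. β-Catenin (CTNNB1) was lower, at 575 to 820 CPM against 1379 to 1776 (log2 fold change -1.14 ± 0.22, edgeR adjusted p = 0.0294). The others were the nectins NECTIN1 (-1.09 ± 0.22) and NECTIN4 (-4.26 ± 0.75), and the neural α-catenin CTNNA2, which was at 0.507 to 1.57 CPM in SW480 and at most 0.0338 in SW480-gRNA-B-all. α-Catenin (CTNNA1), the link of E-cadherin to actin, was at 552 to 577 CPM against 977 to 1060.4 in SW480 and 941 to 1364 in SW480-B. Its log2 fold change was -0.90 ± 0.17 against SW480 (adjusted p = 0.0286), under 2-fold, and -1.06 ± 0.20 against SW480-B (adjusted p = 0.0163), a call. p120-catenin (CTNND1), which stabilizes cadherins at the membrane, differed by -0.03 ± 0.16 against SW480 and 0.14 ± 0.19 against SW480-B. In SW480-B against SW480, 0 of 18 partners were called, with a median of -0.08, where 1.25% of all genes were called lower and 0.0931% higher. NECTIN1 was as low there, at -1.12 ± 0.22 without overlap (edgeR adjusted p = 0.0538), was called in 4 of 6 alternative fits that kept all libraries (adjusted p from 0.00177 to 0.0551), and differed by 0.07 ± 0.22 between the BASP1-expressing lines. Against SW480-B, 2 of 17 were called lower in SW480-gRNA-B-all and 1, the β-catenin inhibitor CTNNBIP1 (1.36 ± 0.24), was called higher. The shares of all genes in that comparison were 4.37% lower and 2.31% higher. With SW480-gRNA-B-all replicates 2 and 3 summed, the adjusted p of CTNNB1, NECTIN1, NECTIN4 and CTNNA2 against SW480 was 0.124, 0.108, 0.105 and 0.0834, and that of CTNNA1 against SW480-B was 0.0973.

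All 8 desmosomal plaque and associated genes were tested. Of them 1 gene, PERP, passed as lower in SW480-gRNA-B-all, both relative to the parental line and relative to SW480-B. Over all genes, 4.66% passed as lower in the former comparison and 4.37% in the latter. PERP, a membrane protein of desmosomes, was at 131, 170 and 168 CPM in SW480, 285, 395 and 198 in SW480-B, and 80.3, 82.2 and 77.1 in SW480-gRNA-B-all. The log2 fold change was -1.01 ± 0.15 against SW480 (edgeR adjusted p = 0.0158) and -1.88 ± 0.25 against SW480-B (adjusted p = 0.00457), and the former was -0.99 (adjusted p = 0.0970) with replicates 2 and 3 summed. The difference from SW480 lay at the 2-fold threshold and was under it with RLE size factors (-0.98), no filter (-0.97) and DESeq2 (-0.96). Desmoplakin (DSP), which anchors intermediate filaments, differed by -0.42 ± 0.18 against SW480 (adjusted p = 0.193). Plakoglobin (JUP), shared by both junction types, differed by -0.74 ± 0.26 (adjusted p = 0.118) and plakophilin-2 (PKP2) by 0.43 ± 0.21 (adjusted p = 0.225). In SW480-B 0 of the 8 were called, where 1.25% of all genes were called lower and 0.0931% higher. The desmosomal plaque genes were thus expressed in SW480-gRNA-B-all, where DSC2 and DSC3 had 9 and 0 counts over the 3 libraries. The median of the list was -0.12 for SW480-gRNA-B-all and 0.50 for SW480-B.

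A list of 18 genes held transcription regulators known to act on CDH1 and the epithelial splicing factors ESRP1 and ESRP2. Of the 18, 12 were tested against SW480. Over all genes, 4.66% were called lower and 1.89% higher in SW480-gRNA-B-all. TCF4, an E-protein known to repress CDH1, was the 1 called, lower in SW480-gRNA-B-all (-4.18 ± 0.54, edgeR adjusted p = 0.0123), and its adjusted p was 0.0630 with replicates 2 and 3 summed. In SW480-B it differed by -3.23 ± 0.71 (adjusted p = 0.0779) and was called in 3 of 5 alternative fits that kept all libraries. It was at 1.01 to 2.23 CPM in SW480, 0.0358 to 0.288 in SW480-B and 0.0676 to 0.136 in SW480-gRNA-B-all. The repressor ZEB1 was at 5.86 to 10.7 CPM in SW480, 13.5 to 17.1 in SW480-B and 11.7 to 12.8 in SW480-gRNA-B-all, with log2 fold changes of 0.74 ± 0.32 (adjusted p = 0.304) and 0.39 ± 0.27 (adjusted p = 0.370) against SW480. SNAI1 differed by -1.31 ± 0.32 (adjusted p = 0.0539) and SNAI2 by -2.36 ± 0.93 (adjusted p = 0.152) for SW480-gRNA-B-all. SNAI1 was called in DESeq2 (adjusted p = 0.00316) and with all 9 libraries in 1 edgeR fit (0.0328), and SNAI2 in DESeq2 (0.0281) and, at -2.82, with the replicate number as a block (0.0469). ZEB2, TWIST1 and the epithelial activator GRHL2 were under 1 CPM in every library. The median of the list was -0.22 for SW480-gRNA-B-all and -0.56 for SW480-B. Between the BASP1-expressing lines 0 of 11 were called, where 4.37% of all genes were called lower and 2.31% higher.

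Of 19 other cadherin genes 5 reached 1 CPM in a library, among them CDH9 and DSG4. CDH13, the GPI-anchored T-cadherin, was at 20.1 to 41.5 CPM in SW480, 46.3 to 71.0 in SW480-B and 20.8 to 32.1 in SW480-gRNA-B-all. It was lower when SW480-gRNA-B-all was set against SW480-B (-1.16 ± 0.24, edgeR adjusted p = 0.0228; 0.106 with replicates 2 and 3 summed and 0.0561 with all 9 libraries in 1 fit). CDH24 was at 7.37 to 19.3, 14.3 to 23.4 and 31.8 to 40.5 CPM, and differed by 1.27 ± 0.34 between SW480-gRNA-B-all and SW480 (edgeR adjusted p = 0.0665). Per exon length its mean in SW480-gRNA-B-all was 9.69 CPM per kb, above the 6.52 of DSG2. Against SW480, 3 genes of the list were tested for SW480-gRNA-B-all and 4 for SW480-B, with 0 called in either. Their medians were 1.27 and 0.37. Against SW480-B, 2 of 4 were called lower, DSG4 and CDH13, with a median of -0.15. DSG4 passed the filter only through its SW480-B counts and could only come out lower. Over all genes, 4.37% were called lower in this comparison.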

How the data were processed

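Total RNA of the 3 lines was sequenced by the authors from stranded poly(A) libraries, aligned to GRCh37, and deposited as whole-number counts of fragments per Ensembl gene, without normalization. The counting program and its strand setting are not given in the sources used here, so antisense reads cannot be told apart. Lines that name no gene (5.22% to 9.93% of a library on no gene, 3.09% to 3.44% ambiguous) stayed out. The authors also deposited Picard RNA metrics, in which 99.1% to 99.4% of reads lay on the correct strand, 90.2% to 95.0% of bases on mRNA, and the 5′ to 3′ coverage ratio was 0.769 to 0.835.

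Lines were compared in pairs, using the 6 libraries of the pair, with edgeR 4.0.16 in R 4.3.3 (filterByExpr with least count 10 and least total 15, TMM, glmQLFit robust, glmQLFTest), with Benjamini-Hochberg adjustment over all genes tested. CPM uses TMM factors over the 9 libraries. Symbols were matched for 55665 identifiers, and positions and exon lengths are from GENCODE v44 mapped to GRCh37. A line at 0 counts was set at 3 counts. Ratios of CDH1 were tested with exact permutations in scipy 1.17.1. The code was tested on simulated data.

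The cadherin genes, the lists (other cadherins, junction partners, desmosomal plaque, regulators, cell markers) and the naming rule (all 10 genes, 6 partners, 6 regulators, up to 5 called genes per list and direction, and the 5 genes most like CDH1) were chosen with earlier results of these data known. RNF138, RNF125, GAREM1, HAS3, B4GALT6, TRAPPC8, CDH9, CDH10, CDH18, CDH24, LUM, COL1A1, VIL1, CDX2 and the keratins were named after their values were seen. Alternatives were RLE size factors, no filter, 1 CPM in 3 libraries, a fit over all 9 libraries, a block for the replicate number, each library left out, DESeq2 1.42.0, and SW480-gRNA-B-all replicates 2 and 3 summed. For the CDH1 ratios, a pseudocount of 1, each library left out and these replicates summed were chosen after seeing the data. Same-numbered libraries of SW480-B and SW480 deviated together (r of 0.32, 0.47 and 0.41). The sources do not say what a replicate number marks, so the main fits and the ratio tests treated the libraries as unpaired. The numbers entered only in the alternative fit with a block.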

Additional observations from a re-analysis of the deposited data

Results flagged for a closer look

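The difference between SW480-gRNA-B-all and SW480-B was tested directly in edgeR, and 8 named genes passed both thresholds, so that the effect of the lines against their common SW480 libraries differed for them. DSC2 (log2 fold change -6.65) and DSC3 (-8.56, a fitted value that depends on the prior count) were lower in SW480-gRNA-B-all, as were DSG4 (-4.30), NECTIN4 (-2.85), PERP (-1.88), CDH13 (-1.16) and CTNNA1 (-1.06), whereas CTNNBIP1 (1.36) was higher. The libraries of the 2 lines did not overlap for any of the 8. Over all 15846 genes tested, 4.37% were called lower and 2.31% higher. For 15.5% of them, all 3 SW480-gRNA-B-all libraries lay below all 3 of SW480-B. DSG4, NECTIN4, PERP, CDH13 and CTNNBIP1 were named because they were called, so the number of called genes is no test of the named genes. DSC2, DSC3 and DSG4 passed the filter only through their SW480-B counts. DSC2, DSC3 and PERP were also called with each library left out, and CTNNA1, CDH13 and CTNNBIP1 were not called with SW480-gRNA-B-all replicates 2 and 3 summed.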

How the results depend on the processing

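The cadherin genes called lower in SW480-gRNA-B-all against SW480 numbered 6, and 4 to 7 in the fits that kept all libraries, but 0 with replicates 2 and 3 summed and 0 to 7 with 1 library left out, where fewer libraries entered. In SW480-B they numbered 3, 2 to 3 in the fits that kept all libraries and 0 to 4 with 1 library left out. Against SW480-B they numbered 2, or 2 to 3. For all genes, the calls in SW480-gRNA-B-all against SW480 (1055) were 2380 with DESeq2, 97 with replicates 2 and 3 summed and 8 to 2659 with 1 library left out. Those of SW480-B (216) were 735 with no filter, 143 at 1 CPM in 3 libraries, 452 with all 9 libraries in 1 fit, 1103 with DESeq2 and 0 to 921 with 1 library left out. Those between the BASP1-expressing lines (1059) were 654 with all 9 libraries in 1 fit, 446 with replicates 2 and 3 summed and 420 to 1548 with 1 library left out. The cause was not tested.

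Values that changed sign were small and not called. Against SW480, CTNND1 in SW480-gRNA-B-all was 0.011 with no filter and 0.013 with DESeq2, and -0.078 to 0.075 with 1 library left out. In SW480-B, CDH1 ranged from -0.23 to 0.68, JUP from -0.010 to 0.58 and DSG4 from -0.21 to 0.47 with 1 library left out. Between the BASP1-expressing lines the ranges were -0.19 to 0.18 for CDH3, -0.25 to 0.091 for DSP, -0.12 to 0.13 for PKP2 and -0.036 to 0.27 for NECTIN1, which was -0.012 with replicates 2 and 3 summed. The ratio of CDH1 to CDH3 (SW480-gRNA-B-all against SW480) ranged from -0.22 to 0.52, that to DSC2 in SW480-B from -0.24 to 1.76, and that to DSG2 between the BASP1-expressing lines from -0.25 to 0.14, with -0.055 for the summed replicates.

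With the replicate number as a block, the cadherin genes called lower were 6 in SW480-gRNA-B-all against SW480, 3 in SW480-B against SW480 and 2 between the BASP1-expressing lines, as without it, and all calls were 1199, 319 and 1389. In SW480-B the block raised the genes called higher from 15 to 56 and changed no call of a cadherin gene. For the other comparisons the correlations of same-numbered libraries were 0.34, -0.00 and 0.33, and 0.30, -0.11 and 0.32, so that these numbers are not shown to pair libraries. In SW480-B the share of calls that were higher was 6.94%, and 26.9% with no filter. Depth limits a gene at 0 counts to about 0.1 CPM, and the spread of the SW480 libraries limits what could be called for CDH1.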
